A study of Mus musculus with 3 samples.

Results

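The MHC class I and antigen processing genes are 10 of the 33696 genes counted in tumor-infiltrating pmel T cells. They were taken by name and not by a cut on their values, though earlier results of these data were known. They are the light chain *B2m*, the heavy chains *H2-K1* and *H2-D1*, the peptide loading genes *Tap1*, *Tap2* and *Tapbp*, the immunoproteasome subunits *Psmb8*, *Psmb9* and *Psmb10*, and the coactivator *Nlrc5*. All 10 were measured in the 3 libraries, and all 10 lay above the level of 10 CPM that was set for comparing genes. Levels are given in CPM, the UMIs of a gene scaled to the total UMIs of its library, where each UMI tags 1 RNA molecule that was captured.

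The cells were pmel CD8+ T cells, which carry a transgenic T cell receptor for the melanoma antigen gp100 and the marker Thy1.1. They had been activated with gp100 peptide, preconditioned in culture with sIL-2 (super IL-2), with IL-2/21-Trikine, or with both sIL-2 and IL-21 (labelled sIL-2 + IL-21), and transferred into irradiated C57BL/6 mice bearing B16F10 melanoma. IL-2/21-Trikine is an engineered protein that joins the receptors of IL-2 and IL-21 on 1 cell. Mice received the low-dose regimen, in which recipients of sIL-2-preconditioned and of sIL-2 + IL-21-preconditioned cells were both given sIL-2, and recipients of Trikine-preconditioned cells were given IL-2/21-Trikine, so the sIL-2 + IL-21 library differs from the sIL-2 library in the culture and not in the injected cytokine. On day 18 after tumor injection, the live Thy1.1+CD8+ fraction of the tumors was sorted and made into 1 library for each treatment. The number of mice pooled in each library was not found in the sources used here. With 1 library per treatment there is no replicate and no test between treatments, and each interval below is a 95% interval of counting error only.

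Class I molecules show peptides from a cell's own proteins to CD8+ T cells. The proteasome cuts the proteins, the TAP transporter carries the peptides into the endoplasmic reticulum, tapasin (encoded by *Tapbp*) helps load them, and B2m holds the heavy chain in its folded form. Interferons raise most of these genes, in part through NLRC5, a coactivator that is recruited to class I promoters by the RFX, CREB and NF-Y factors. In T cells the pathway is active at rest, and *H2-K1* and *H2-D1* encode the classical heavy chains of the C57BL/6 mouse.

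RefSeq promoter windows were at hand for 8 of the 10 genes, all but *Tap2* and *Nlrc5*. The 200 bases before the start are shown for *B2m*, *H2-K1* and *H2-D1*, which carry the most UMIs of the group, and for *Tap1*, whose window is shared with *Psmb9*. Positions are in GRCm38.p6, at chr2:122147487-122147686 (plus strand) for *B2m*, chr17:34000348-34000547 (minus strand) for *H2-K1*, chr17:35262894-35263093 (plus strand) for *H2-D1* and chr17:34187356-34187555 (plus strand) for *Tap1*. Capitals mark matches on either strand to the core of the interferon-stimulated response element in both of its forms (GAAANNGAA and GAANNGAAA), to the kappa B site (GGGNNTTCC), to the CRE-like site (TGACG) and to the CCAAT box (CCAAT).
B2m: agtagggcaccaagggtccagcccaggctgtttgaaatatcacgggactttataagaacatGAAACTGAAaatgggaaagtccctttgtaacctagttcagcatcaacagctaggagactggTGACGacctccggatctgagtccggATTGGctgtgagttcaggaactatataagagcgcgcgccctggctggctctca
H2-K1: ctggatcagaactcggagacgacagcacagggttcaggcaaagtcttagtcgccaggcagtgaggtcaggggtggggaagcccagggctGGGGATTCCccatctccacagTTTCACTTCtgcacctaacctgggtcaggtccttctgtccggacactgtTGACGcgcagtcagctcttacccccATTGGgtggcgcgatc
H2-D1: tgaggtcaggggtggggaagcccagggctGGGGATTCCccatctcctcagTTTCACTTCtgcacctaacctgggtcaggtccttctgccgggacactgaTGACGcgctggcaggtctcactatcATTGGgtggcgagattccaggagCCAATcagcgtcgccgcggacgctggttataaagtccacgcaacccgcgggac
Tap1: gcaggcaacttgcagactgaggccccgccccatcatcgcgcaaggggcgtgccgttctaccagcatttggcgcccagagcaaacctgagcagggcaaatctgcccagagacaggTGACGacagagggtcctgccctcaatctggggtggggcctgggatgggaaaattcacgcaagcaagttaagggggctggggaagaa

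The *H2-K1* and *H2-D1* stretches both carried, in 1 order, a kappa B match, an interferon element of the second form, a CRE-like match and a CCAAT match on the opposite strand. The *H2-D1* stretch held a further CCAAT match 53 bases before its start, and the *H2-K1* window held one at base 9 after its start, beyond the stretch shown. Aligned on the kappa B match without gaps, the 2 windows were identical at 176 of 240 bases (73.3%). *B2m* carried an interferon element of the first form 139 bases before its start, then a CRE-like and a CCAAT match. It held no match to GGGNNTTCC, but other spacings of the kappa B site were not searched. The *B2m* window is therefore not shown to lack such a site. The *Tap1* and *Psmb9* windows lie on opposite strands and share 275 bases, and the stretch above held a CRE-like match alone. Among 32851 promoter windows of 250 bases before to 50 bases after a start, 8.56% held the first form of the interferon element, 7.52% the second form, 5.82% the kappa B match, 20.8% the CRE-like match and 37.4% the CCAAT match. Of the 8 windows, 1 held the first form (*B2m*), 2 the second form and the kappa B match (*H2-K1* and *H2-D1*), 5 the CRE-like match and 6 the CCAAT match. The CRE-like match of *Tap1* and that of *Psmb9* are the same bases, counted in both windows, and so are their CCAAT matches. A further motif, the gamma-activated site (TTCNNNGAA), was found in *Psmb8* alone of the 8 and in 8.30% of all windows. The second form was added to the search after the letters of *H2-K1* had been read. These are matches of letters, and binding was not measured.

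Quality control kept 30857 of 31026 cells, from 7760 to 13299 per library, with 130200802 to 168041089 UMIs per library and a median of 10254 to 14055.5 UMIs per cell. The T cell identity held in each library, with 7 of 7 T cell markers (*Cd3d*, *Cd3e*, *Cd3g*, *Cd8a*, *Cd8b1*, *Thy1* and *Trac*) between 118 and 1503 CPM. The 11 myeloid markers summed to 11.2 to 14.3 CPM and the 5 melanoma markers to 2.16 to 8.50 CPM. The 6 B cell and dendritic markers summed to 19.2 CPM with sIL-2, to 35.1 with IL-2/21-Trikine and to 27.1 with sIL-2 + IL-21, nearly all of it from the class II genes *H2-Aa* and *H2-Ab1*, with the other 4 (*Cd79a*, *Ms4a1*, *Flt3* and *Xcr1*) at 0.177 CPM or less. Hemoglobin genes summed to 68.7 CPM with sIL-2 and to at most 0.476 CPM in the other two libraries, and the part of both lists in the ratios below was not tested. At most 60 cells of a library (0.515% or less) carried 10 or more myeloid or 3 or more melanoma UMIs, and they held between 0.198% and 1.24% of the UMIs of any of the 10 genes. Barcodes shared by a pair of libraries numbered 18 to 41, at most 0.418% of the smaller library.

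The levels of 7 of the 10 genes were highest with sIL-2, and those of the 3 immunoproteasome subunits were highest with IL-2/21-Trikine and lowest with sIL-2, an order that for *Psmb8* changed with thinning or with the weighting or choice of cells. *B2m*, the light chain of every class I molecule, stood at 4777 CPM with sIL-2, at 4554 with IL-2/21-Trikine and at 3718 with sIL-2 + IL-21. The heavy chain *H2-K1* stood at 2806, 2468 and 1880 CPM in the same order, and *H2-D1* at 1363, 1085 and 948 CPM. Both heavy chains and the light chain thus had 1 order, sIL-2, then IL-2/21-Trikine, then sIL-2 + IL-21. Reads of *H2-K1* and *H2-D1* may be shared with near-identical class I genes, so the split between heavy chains is uncertain.

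*Tap1*, a subunit of the peptide transporter, was at 77.7 CPM with sIL-2 (interval 76.2 to 79.2), 62.3 with IL-2/21-Trikine (61.1 to 63.5) and 59.8 with sIL-2 + IL-21 (58.6 to 61.0). *Tap2*, its partner subunit, was at 83.8, 60.4 and 67.0 CPM, and was the 1 gene of the 10 with its lowest level in the IL-2/21-Trikine library outright. *Tapbp* was at 95.5, 80.2 and 74.1 CPM. *Nlrc5* was at 101 CPM with sIL-2, at 93.0 with IL-2/21-Trikine and at 65.5 with sIL-2 + IL-21, the largest span of the 10 at 1.54-fold from highest to lowest. The counting intervals of the 3 libraries were apart for each of these genes, but their width says nothing of the spread between mice.

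The immunoproteasome subunits replace the catalytic subunits of the standard proteasome. *Psmb8* was at 384 CPM with sIL-2, at 406 with IL-2/21-Trikine and at 397 with sIL-2 + IL-21, a span of 1.06-fold. *Psmb9* was at 307, 353 and 326 CPM, and *Psmb10* at 84.3, 103 and 92.0 CPM. Their order, IL-2/21-Trikine, then sIL-2 + IL-21, then sIL-2, differed from that of the other 7 genes, as the plot of levels by library shows.

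**Figure D1:**
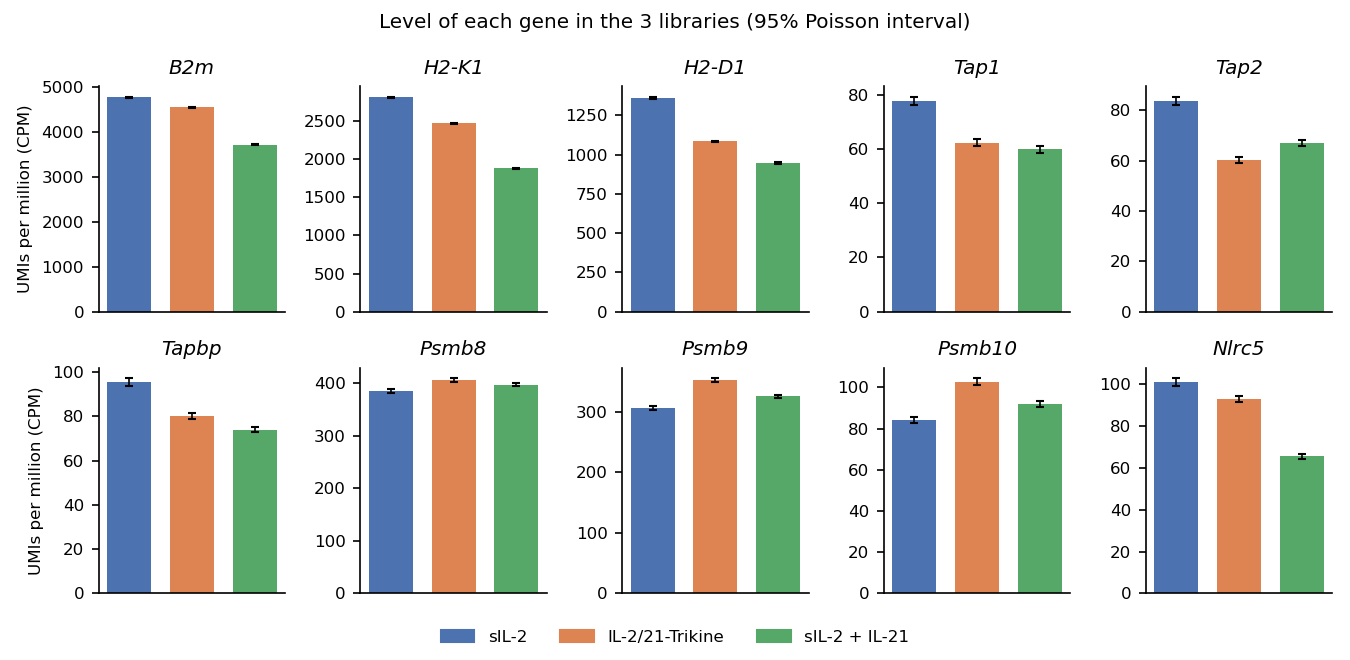
Level of each of the 10 genes in the 3 libraries, colored by treatment, in CPM on a separate axis from 0 for each gene, with 95% Poisson intervals and 1 library per bar. The sIL-2 bar is highest for 7 genes and lowest for *Psmb8*, *Psmb9* and *Psmb10*.

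In sIL-2 compared with sIL-2 + IL-21, the light chain, heavy chains, loading genes and *Nlrc5* were all higher, and the immunoproteasome was not. *Nlrc5* had the largest log2 ratio at 0.63 (interval 0.59 to 0.66), followed by *H2-K1* at 0.58 (0.57 to 0.58) and *H2-D1* at 0.52 (0.51 to 0.53). These 3 of 10 were past a log2 ratio of 0.5 upward and none was past it downward, where 9.89% of the 7370 genes compared were past it upward and 5.20% downward. *Tap1* (0.38), *Tapbp* (0.37), *B2m* (0.36) and *Tap2* (0.32) came next. *Psmb8* (−0.05), *Psmb9* (−0.09) and *Psmb10* (−0.13) lay just under 0, though *Psmb8* was above 0 in 2 other settings. The median of the 10 genes was 0.36, against 0.07 over all genes compared. Cells with UMIs of cell cycle genes were fewer in the sIL-2 library, where the S phase genes had a median log2 ratio of −0.83 and the G2 and mitosis genes of −0.71. In cells with none of these UMIs, a comparison added after the values were seen, the ratio was 0.45 for *Nlrc5*, 0.44 for *H2-K1* and 0.44 for *H2-D1*, so that 0 of the 10 were past 0.5, and the median was 0.27. The share of all genes past 0.5 in either direction was lower there too, at 8.44% against 15.1% in all kept cells. The median of all genes in those cells was 0.10.

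In IL-2/21-Trikine compared with sIL-2, no gene of the 10 was past 0.5 in either direction, where 2.56% of all genes compared were past it upward and 5.41% downward. *Tap2* had the lowest log2 ratio at −0.47 (interval −0.51 to −0.43), followed by *H2-D1* at −0.33 and *Tap1* at −0.32. *Tapbp* (−0.25), *H2-K1* (−0.19), *Nlrc5* (−0.12) and *B2m* (−0.07) were also lower with IL-2/21-Trikine. *Psmb10* (0.29), *Psmb9* (0.20) and *Psmb8* (0.08) were higher with it. The median was −0.15 for the 10 genes and −0.08 for all genes compared. In this pair the S phase genes had a median log2 ratio of 0.72 and the G2 and mitosis genes of 0.46. Cells with no UMI of either list were compared after the values were seen. In those cells *Psmb10* was at 0.24, *Psmb9* at 0.13 and *Psmb8* at 0.01, while *Tap1* was at −0.46. The median there was −0.16 for the 10 genes and −0.10 for all genes.

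In IL-2/21-Trikine compared with sIL-2 + IL-21, 9 of the 10 genes were higher, by small amounts, where 3768 of the 7370 genes compared were higher. *Nlrc5* alone was past 0.5, at 0.51 (interval 0.47 to 0.54), where 3.18% of all genes compared were past 0.5 upward and 2.86% downward. Its ratio lay on either side of 0.5 in other settings, from 0.30 in cells without cell cycle UMIs to 0.54. *H2-K1* (0.39), *B2m* (0.29) and *H2-D1* (0.19) followed, and *Tap2* was the 1 gene below 0, at −0.15. The median of the 10 was 0.14 and that of all genes 0.005. The 3 pairs of libraries share their libraries, so these comparisons are not independent of each other.

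**Figure D2:**
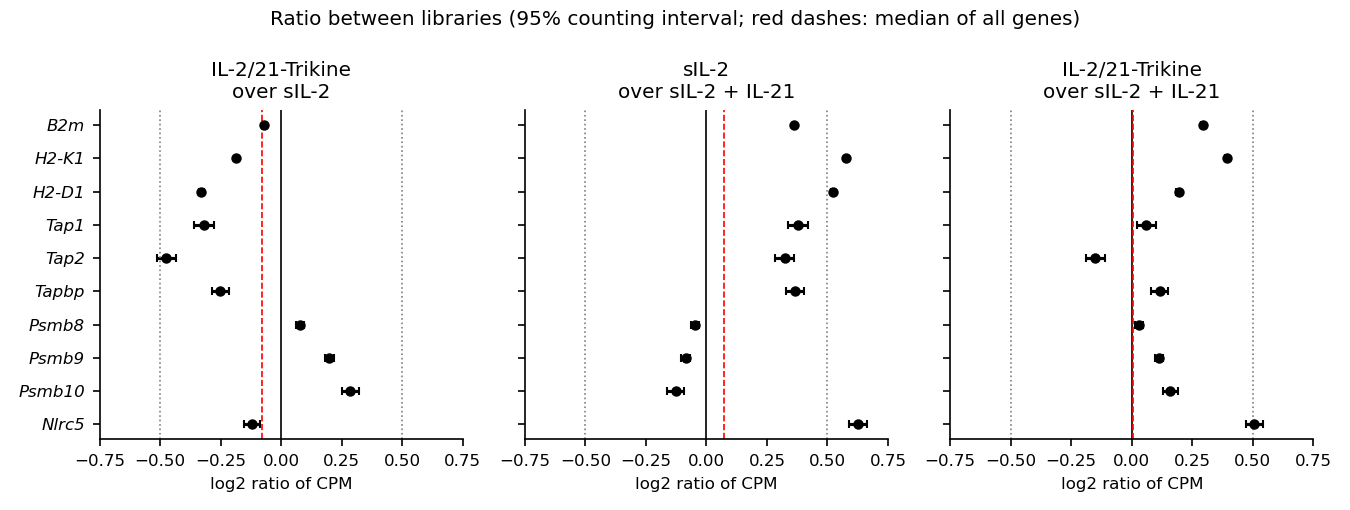
Log2 ratio of CPM for the 10 genes in each pair of libraries, with 95% counting intervals, dotted lines at a log2 ratio of 0.5 in either direction and a red dashed line at the median of all genes compared. In the middle panel (sIL-2 relative to sIL-2 + IL-21) *Nlrc5*, *H2-K1* and *H2-D1* lie beyond 0.5 and the immunoproteasome subunits lie just under 0.

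The remaining proteasome genes placed the immunoproteasome values beside the rest of the particle. Compared with sIL-2, IL-2/21-Trikine had higher levels of all 11 other subunits of the 20S core, with a median log2 ratio of 0.22, from 0.03 for *Psmb1* to 0.37 for *Psma7*. All 11 were lower with sIL-2 than with sIL-2 + IL-21, with a median of −0.30, from −0.13 for *Psmb1* to −0.48 for *Psmb3*. The standard catalytic subunits *Psmb5*, *Psmb6* and *Psmb7* had a median of 0.18 in the first comparison and −0.24 in the second, so the immunoproteasome subunits had the sign of the other proteasome subunits in both. In IL-2/21-Trikine compared with sIL-2 + IL-21 the signs were opposite, with medians of 0.11 for the immunoproteasome, −0.12 for the standard catalytic subunits and −0.09 for the other core subunits, of which 9 of 11 were below 0. Within a library, UMIs of *Psmb8*, *Psmb9* and *Psmb10* together outnumbered those of *Psmb5*, *Psmb6* and *Psmb7* by 2.19 times with sIL-2 (interval 2.16 to 2.21), 2.13 with IL-2/21-Trikine (2.11 to 2.15) and 1.86 with sIL-2 + IL-21 (1.84 to 1.88). Taken by pair in the same order, the ratio was 3.02, 2.82 and 2.65 for *Psmb8* over *Psmb5* and 2.36, 2.22 and 1.89 for *Psmb9* over *Psmb6*. For *Psmb10* over *Psmb7* it was 0.861, 1.01 and 0.801, so this pair was highest with IL-2/21-Trikine. The summed ratio of UMIs was lowest with sIL-2 + IL-21. UMIs count captured RNA and not protein, so this ratio can be compared between libraries and not read as a ratio of subunits.

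Of the 23 further genes of the class I pathway, 21 were above 10 CPM. Relative to sIL-2 + IL-21, 6 of the 21 were past 0.5 upward with sIL-2 and none downward, and all 6 were nonclassical heavy chains: *H2-T22* (1.02), *H2-T10* (1.01), *H2-Q4* (0.94), *H2-T23* (0.94), *H2-Q6* (0.85) and *H2-Q7* (0.75). Of all genes compared, 9.89% were past 0.5 upward in this pair and 5.20% downward. The lowest of the list was *Psmb6* at −0.41. *H2-T23* encodes Qa-1, which presents peptides of other class I molecules to NKG2 receptors, and stood at 258 CPM with sIL-2, at 205 with IL-2/21-Trikine and at 135 with sIL-2 + IL-21. With IL-2/21-Trikine over sIL-2 + IL-21, 3 of the 21 were past 0.5 (*H2-T10* at 0.72, *H2-T23* at 0.60 and *H2-T22* at 0.56) and the lowest was *Psmb7* at −0.17. Of all genes compared, 3.18% were past 0.5 upward there. With IL-2/21-Trikine over sIL-2, *H2-Q6* alone was past 0.5, at −0.56, and the highest was *Psmb6* at 0.29. Of all genes compared, 5.41% were past 0.5 downward there, a share near that of the 21. These 6 heavy chains had the order of *H2-K1* and *H2-D1* across the libraries, as did *H2-M3*, picked out after its values were seen, with a ratio of 0.33 for sIL-2 relative to sIL-2 + IL-21. Nonclassical heavy chain sequences can be near-identical to each other, so the split of reads between these genes is uncertain.

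Of 20 regulators of the pathway, 17 were above 10 CPM. Relative to sIL-2 + IL-21, 4 of the 17 were past 0.5 upward with sIL-2, where 9.89% of all genes compared were. Among the 4 were *Stat2* (0.74), *Nfkb1* (0.73) and *Irf9* (0.64). *Stat2* and *Irf9* encode subunits of a factor that binds the interferon-stimulated response element, and *Nfkb1* encodes a subunit that binds kappa B sites. The lowest of the list was *Rfxap*, of the RFX complex, at −0.09. With IL-2/21-Trikine over sIL-2 + IL-21, 2 of the 17 were past 0.5 upward, where 3.18% of all genes compared were. *Irf9* (0.53) was among the 2, and *Irf8* was lowest at −0.26. With IL-2/21-Trikine over sIL-2, *Nfkb1* alone was past 0.5, at −0.56. Of all genes compared, 5.41% were past 0.5 downward there, a share near that of the 17. *Irf1*, an interferon-γ target that acts on class I promoters, was highest at 0.27. *Ifng* itself stood at 875 CPM with sIL-2, at 617 with IL-2/21-Trikine and at 665 with sIL-2 + IL-21. Its part in the levels of the 10 genes was not tested.

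The 10 genes were then set against the interferon response of each cell, scored by the UMIs of 30 type I interferon genes such as *Ifit1*, *Isg15* and *Rsad2*, none of them among the 10. Of these, 25 were above 10 CPM, and all 25 were past 0.5 upward in sIL-2 relative to sIL-2 + IL-21, at a median log2 ratio of 1.17. Of all genes compared, 9.89% were past 0.5 upward in that pair. To compare cells of unequal depth, each was thinned to 2000 UMIs, which left 28452 cells and took out from 3.43% (sIL-2) to 13.3% (IL-2/21-Trikine) of a library. Cells with 8 or more of these UMIs were 8.03% of thinned cells with sIL-2 + IL-21, but 22.04% with IL-2/21-Trikine and as many as 26.9% with sIL-2. Cells with 0 were 17.9%, 8.10% and 8.14% in that order. Such bins are ranges of a score and not cell types.

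Each of the 10 genes was higher in cells with 8 or more interferon UMIs than in cells with 0, in each of the 3 libraries. *Nlrc5* stood at 73.8 CPM in the lowest and 175 CPM in the highest bin with sIL-2, a ratio of 2.37, and the ratio stood at 1.79 with IL-2/21-Trikine and at 2.78 with sIL-2 + IL-21. *Tapbp* had ratios of 2.70, 2.61 and 1.73. *H2-K1* had ratios of 1.63, 1.62 and 1.88, and *B2m* of 1.32, 1.44 and 1.51. *Psmb8* had the smallest ratios of the 10, 1.25, 1.34 and 1.29. For *B2m*, *H2-K1*, *H2-D1*, *Tap1* and *Tap2* each of the 4 steps between bins was upward in every library, as the plot of levels by interferon UMIs shows. The bins with more interferon UMIs held cells that were shallower before thinning, with a median of 10240 UMIs in the top bin against 17303 in the 0 bin with sIL-2.

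**Figure D3:**
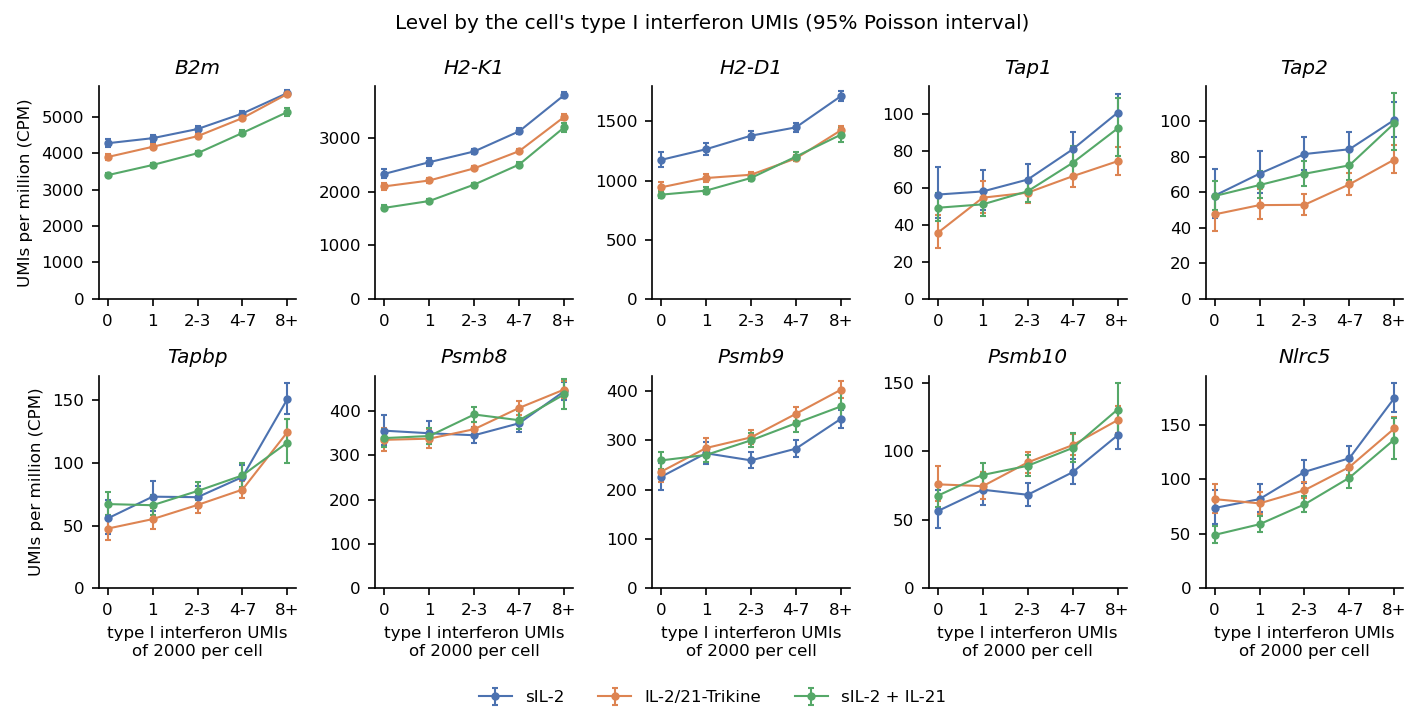
Level of the 10 genes (CPM, separate axes from 0, 95% Poisson intervals) in cells grouped by their UMIs of type I interferon genes after thinning to 2000 UMIs, with a line for each library. In every panel and library the level at 8 or more UMIs is above the level at 0. The sIL-2 line lies above the others for *B2m*, *H2-K1*, *H2-D1*, *Tap1* and *Tap2*, by little in some bins.

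Cells were also split into high (6 or more interferon UMIs) and low (at most 1). With sIL-2, 6 of the 10 genes were past a log2 ratio of 0.5 upward in 2721 high over 1623 low cells, where 8.65% of the 7345 genes outside the interferon list were. With IL-2/21-Trikine, 7 of the 10 were, against 7.72%, and with sIL-2 + IL-21 it was 7 of the 10 against 12.6%. The median log2 ratio of the 10 was 0.59, 0.57 and 0.64 in the same order, and that of all genes outside the list was between −0.01 and 0.003. Taking the median of the 3 libraries for each gene, the ratio was 1.06 for *Tapbp*, 1.04 for *Nlrc5*, 0.72 for *Tap1*, 0.67 for *Psmb10*, 0.62 for *Tap2*, 0.58 for *H2-K1*, 0.46 for *H2-D1*, 0.42 for *B2m*, 0.42 for *Psmb9* and 0.30 for *Psmb8*. *Nlrc5* and *Tapbp* led and *Psmb8* came last, with *Nlrc5* ranging from 0.78 to 1.26 between libraries and *Tapbp* from 0.66 to 1.08. Between 823 and 1679 cells of a library lay at the limit of 6 UMIs or 1 below it. In cells of 8000 to 16000 UMIs before thinning, a limit added after the values were seen, the median over the 10 genes was 0.66, against 0.60 over all depths.

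The same split was made by other gene lists. In cells with an *Ifng* UMI, all 10 were lower than in cells with none in each of the 3 libraries, with a median log2 ratio over genes of −0.19, where all genes outside the list had medians of −0.06 to −0.04. In cells with 9 or more UMIs of the cytokine and chemokine genes (*Tnf*, *Ccl3*, *Ccl4*, *Il2*, *Xcl1*, *Csf2* and *Il3*) against at most 1, the median was −0.44, with *Nlrc5* at −0.78, *Psmb9* at −0.66 and *Tap1* at −0.60, while *B2m* (−0.10) and *H2-K1* (−0.09) lay by the medians of all genes outside the list, −0.11 to −0.10. In cells with an *Nlrc5* UMI the other 9 genes had a median of 0.12, with *Tap1* (0.26) and *Tapbp* (0.25) highest and *Psmb8* at 0.01, where all genes had medians of 0.03 to 0.05. Cells high in the interferon-induced GTPases (*Gbp* and *Irg* families) had a median of 0.34, against 0.02 to 0.03 for all genes outside the list. This split was 1 or more UMIs against 0, a weaker cut than that of the type I interferon genes.

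In cycling cells and in cells with granzymes C to G, *Psmb8* and *Psmb9* were higher and *Nlrc5* and *H2-K1* were lower in each of the 3 libraries. In cells with a G2 or mitosis UMI, *Psmb9* was at a log2 ratio of 0.51, *Tap1* at 0.37 and *Psmb8* at 0.21, while *H2-K1* was at −0.22, *Nlrc5* at −0.18 and *B2m* at −0.15. In cells with 6 or more UMIs of *Gzmc* to *Gzmg*, effector granzymes, *Psmb9* was at 0.40 and *Psmb8* at 0.32, while *Nlrc5* was at −0.69 and *H2-K1* at −0.40. In the same cells *Psmb10* (0.04), *B2m* (−0.02) and *H2-D1* (−0.08) were near 0, with counting intervals across 0 in 3, 2 and 1 of the libraries. All genes outside the list had medians of −0.08 to −0.04 in the granzyme split, and of 0.01 to 0.04 in the G2 and mitosis split. In cells with 4 or more UMIs of stem and memory genes such as *Tcf7* and *Il7r*, *Nlrc5* was at 0.65 and the immunoproteasome subunits between −0.03 and 0.12. Medians of all genes outside that list were 0.03 to 0.05. *Nlrc5* therefore had its highest ratios in cells high in interferon genes, GTPases or stem and memory genes and its lowest in cells high in cytokine or granzyme genes. The high and low cells of each list also differed in depth before thinning, with medians of 20270 and 10899 UMIs for the G2 and mitosis genes with sIL-2 + IL-21.

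**Figure D4:**
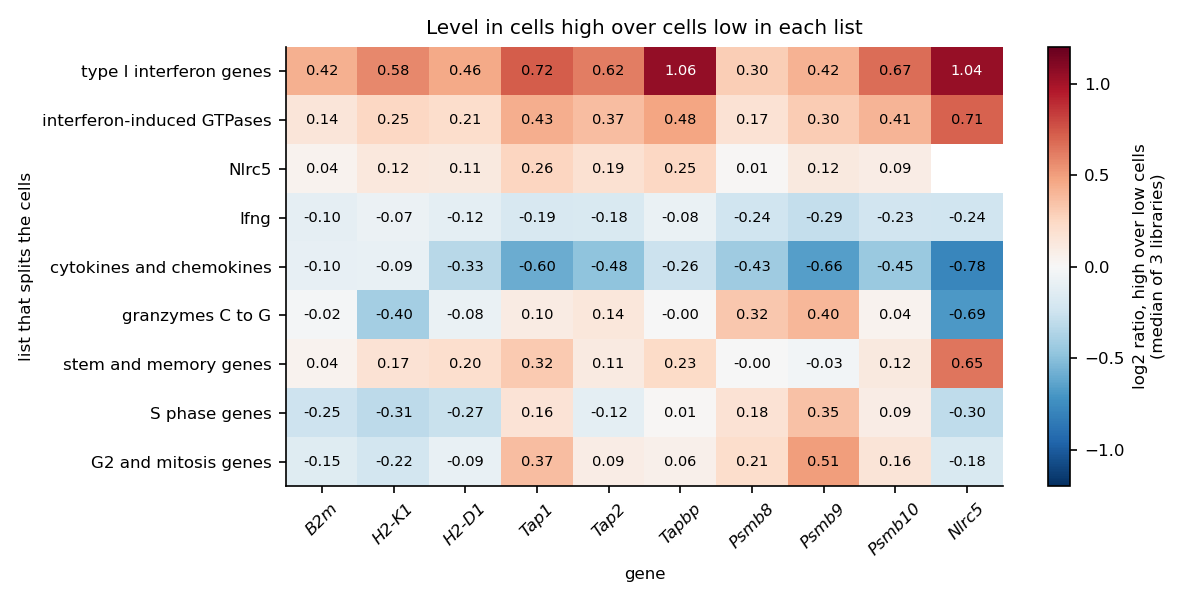
Log2 ratio of the level of each of the 10 genes (columns) in cells high over cells low in each gene list (rows), as the median of 3 libraries, in cells thinned to 2000 UMIs. The type I interferon row is above 0 for all 10 genes, the *Ifng* and the cytokine and chemokine rows are below 0 for all 10, and the cell cycle and granzyme rows are mixed.

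Because the libraries differ in their share of interferon-high cells, ratios between libraries were also taken with the 5 bins given the same weights in each library. The median of the 10 genes for sIL-2 relative to sIL-2 + IL-21 was 0.30 in thinned cells and 0.14 at equal makeup. *Nlrc5* went from 0.66 to 0.38, *H2-K1* from 0.52 to 0.35 and *Tapbp* from 0.29 to 0.08, so none of the 10 was past 0.5 at equal makeup, and *Psmb8* changed sign, from 0.03 to −0.04. Equal makeup was taken for these 10 genes only, so no share or median over all genes stands beside these values. Whether the ratios of other genes shrank as much was not tested. The median for IL-2/21-Trikine against sIL-2 + IL-21 went from 0.15 to 0.02, and 4 genes changed sign: *Tap1* (0.02 to −0.14), *Tapbp* (0.02 to −0.15), *Psmb10* (0.14 to −0.0097) and *Psmb8* (0.06 to −0.0053). For IL-2/21-Trikine over sIL-2 the median was −0.20 before and −0.17 after, with *Tap2* at −0.45 and −0.44. The pair with the most alike shares of interferon-high cells had the least altered ratios. The weighting brings this about by construction, so it is not a result about these genes. *Nlrc5* (0.38), *H2-D1* (0.36) and *H2-K1* (0.35) had the largest ratios of sIL-2 over sIL-2 + IL-21 at equal makeup.

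**Figure D5:**
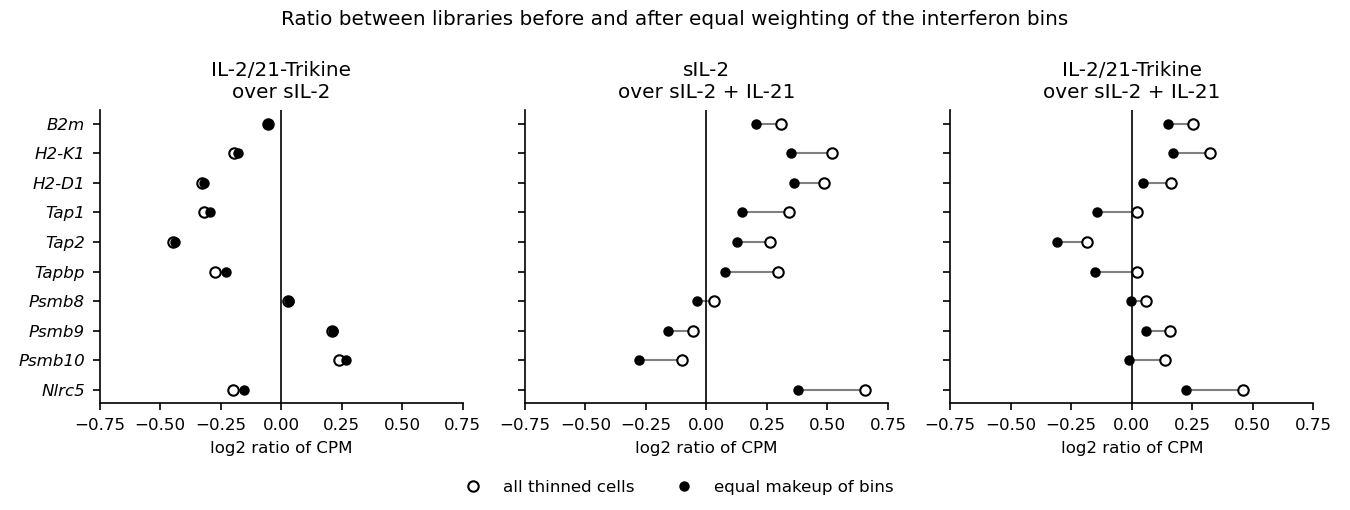
Log2 ratio of CPM for the 10 genes in each pair of libraries, in all cells thinned to 2000 UMIs (open circles) and with the 5 interferon bins given the same weight in both libraries (filled circles). The filled circles lie left of the open ones for all 10 genes in both pairs with sIL-2 + IL-21 and close to them in the pair of IL-2/21-Trikine and sIL-2.

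Across cells, the summed UMIs of the 10 genes (median at 21 of 2000 with sIL-2, at 19 with IL-2/21-Trikine and at 16 with sIL-2 + IL-21) went with the interferon UMIs at a Pearson correlation of log(1 + UMIs) of 0.38, 0.40 and 0.36 and a Spearman correlation of 0.39, 0.40 and 0.36, over 7494, 11524 and 9434 cells. Without *B2m*, *H2-K1* and *H2-D1*, the summed UMIs of the other 7 genes had a median of 2 in each library. Their Pearson correlation with the interferon UMIs was lower, at 0.22, 0.21 and 0.16 in the same order. These are descriptions over cells of 1 library, which share their source. Among the 45 pairs of the 10 genes, *B2m* with *H2-K1* had the highest mean correlation over libraries (0.25), then *H2-K1* with *H2-D1* (0.22), *B2m* with *H2-D1* (0.19) and *Psmb8* with *Psmb9* (0.09). The 3 chains have by far the most UMIs per cell. The remaining pairs had lower correlations, down to 0.002 for *Psmb8* with *Nlrc5*. How far sparse counts lower these values was not tested.

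Likeness to the group was measured as the mean correlation with the 10 genes over 3 libraries, for 2961 other genes of at least 50 CPM. The 10 most alike included *AW112010* (0.113), *Ly6a* (0.112), *Epsti1* (0.102), *Tmsb4x* (0.102), *Ms4a4b* (0.100), *Ly6c2* (0.099), *Cd52* (0.098), *Shisa5* (0.096) and *Tmsb10* (0.088), where the median of all other genes was −0.0009. *Ly6a* encodes Sca-1, *Tmsb4x* and *Tmsb10* encode thymosins that bind actin, and *Cd52* encodes a small surface glycoprotein of lymphocytes. Each of the 10 class I genes, scored against the other 9, had from 10 (*H2-K1*) to 223 (*Nlrc5*) of the 2961 genes at or above it. All such values are small in thinned cells, and genes with more UMIs can reach higher ones.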

How the data were processed

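The deposited values are the authors' raw UMI counts of each gene in each cell for 3 libraries of sorted intratumoral pmel T cells, without normalization, made with Cell Ranger 9.0.0 (10x 3′ chemistry, intronic reads included) and limited to called cells. The methods name a GRCm39 reference and the submitters' processing notes name mm10, so gene positions are not given, and promoter sequences come from RefSeq windows of GRCm38.p6, matched by symbol. Cells outside 500 to 120000 UMIs, or with over 20% of their UMIs in 13 mitochondrial genes, were left out. No doublet caller was run, and cells over 40000 UMIs were left out as an alternative.

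UMIs were summed per library and scaled to CPM. With 1 library per treatment no test was made: levels have exact Poisson intervals and ratios exact conditional binomial intervals at 95%, for counting error only. The 7370 genes whose mean over the libraries reached 10 CPM were compared, and a log2 ratio past 0.5 was the limit for naming. For relations between cells, each cell was thinned to 2000 UMIs with a fixed seed. High cells were at or above the pooled 75th percentile of a list's UMIs (at least 1) and low cells at or below the 25th. In bins, levels were averaged with the pooled share of cells as weights. In the other lists of the pathway, genes past 0.5 in any pair and the highest and lowest were named, and the 10 genes with the highest likeness. *Ifng* and *H2-T23* levels were picked out after their values were seen. A gene that is counted in these lists is not reported here by name. The 10 genes and the lists were chosen with earlier results of these data known. Alternatives covered cell limits, possible other cell types, scaling, weight of cells, depth after thinning, the list of interferon genes and the cell cycle. The ratio steps were tested on simulated counts with counting error only, and the split of cells on simulated cells in a high or a low state. Neither simulation held a spread between mice or libraries, so they do not test that part. Calculations used Python 3.11.15, numpy 2.4.6, scipy 1.17.1, pandas 2.3.3 and matplotlib 3.10.9.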

Additional observations from a re-analysis of the deposited data

How the results depend on the processing

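No paired analysis was possible because each treatment has 1 library. The median log2 ratio of the 10 genes kept its sign in each pair of libraries under all 10 other settings. It could not change in the setting with no limit on low values, as all 10 genes lie above that limit. For IL-2/21-Trikine over sIL-2 (−0.15) it was −0.21 without cells over 40000 UMIs, −0.087 with median-of-ratios size factors, −0.087 with totals that leave out mitochondrial and ribosomal protein genes, and −0.20 in thinned cells. For sIL-2 relative to sIL-2 + IL-21 (0.36) it was 0.29 with size factors, 0.32 with each cell weighted equally, 0.33 with totals without mitochondrial and ribosomal protein genes, 0.30 in thinned cells and 0.27 in cells without cell cycle UMIs, an alternative chosen after seeing the data. For IL-2/21-Trikine over sIL-2 + IL-21 (0.14) it was 0.073 with each cell weighted equally, 0.17 with the reduced totals and 0.075 in cells without cell cycle UMIs. The share of all genes past 0.5 in either direction was 7.98%, 15.1% and 6.04% for the 3 pairs in that order, 28.4%, 34.1% and 30.2% with no limit on low values, and 8.44% for the second pair in cells without cell cycle UMIs. In sIL-2 relative to sIL-2 + IL-21, *H2-D1* was at 0.45 to 0.50 and 2 of the 10 genes were past 0.5 under size factors, equal weights, reduced totals or thinning, in place of 3. The share of all genes past 0.5 in either direction was 14.2%, 13.6%, 14.5% and 14.8% in those settings, in that order, against 15.1%. *Psmb8* changed sign in 2 settings of the same pair and in 1 for IL-2/21-Trikine over sIL-2 + IL-21, and *Tap1* in 1 for the latter pair.

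The median for cells high over low in interferon genes (0.60) was 0.44 in cells thinned to 1000 UMIs and 0.84 without thinning. With the GTPases as the list it was 0.34, at the weaker cut of 1 or more UMIs against 0. All 30 values of 10 genes in 3 libraries stayed above 0 in each of the 9 other settings. At equal makeup, IL-2/21-Trikine over sIL-2 + IL-21 had a median of 0.10 with bins of the GTPases, against 0.02. The cause was not tested for any of these. Intervals leave out the spread between mice and libraries, which cannot be told apart from treatment here.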
